A study of Mus musculus with 5 samples.

Results

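The olfactory receptor window described here is a stretch of 4.7 Mb on mouse chromosome 2, from 85000001 to 89700000 in the deposited coordinates, and its members are its 94 bins of 50 kb out of 47203 autosomal bins with enough reads to be used (at least 50 summed over all libraries). Its limits are fixed positions, and no measured value enters the rule that chooses the bins. Read counts are of aligned reads of RNA polymerase II chromatin immunoprecipitation, each counted once at its 5′ end, in the brain, lung, kidney, liver and spleen dissected from adult mice of the FVB strain. The labels name no treatment and do not say how many animals were used, their sex or exact age, or whether tissues were pooled. Each tissue is 1 library, made with the same polymerase antibody from Abcam. There was no replicate, so no difference between tissues was tested, and intervals cover counting error only. No input library was used here, so the window serves as a background measured inside each library.

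Olfactory receptors are G-protein-coupled receptors that bind odorants, and they form the largest gene family in the mouse genome. A mature olfactory sensory neuron of the nasal epithelium expresses a single receptor allele, and the other receptor genes are held in compact chromatin marked by repressive histone methylation. The cell bodies of these neurons do not lie in any of the dissected tissues, so this cluster is a long block of genes for which no polymerase signal is generally anticipated. The word silent in this context refers to that background. These data measure polymerase reads and do not measure repressive marks or RNA. In whole tissue, polymerase on few cells and little polymerase on many cells cannot be told apart, and without an input library neither can be told from nonspecific reads.

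The sources used here do not state the build of the deposited coordinates, and the window was defined on mm9. The RefSeq gene table used here is on GRCm38.p6: the last read on chromosome 7, at 152524509, lay past the end of its last gene there, so the builds differ and no bin was assigned to a gene. The table gives the order of neighbours only. On chromosome 2 it lists a run of 293 olfactory receptor genes from Olfr987 to Olfr1274. They comprise 222 protein-coding genes, 67 pseudogenes and a few counted in neither class. The 293 are out of 377 receptor genes on the chromosome and 1428 in the table. How many of the 293 lie in the window was not determined. The table lists 39 other genes inside the run. Of these, 3 are protein coding: Fads2b, a fatty acid desaturase gene by name, and Pramel7 and Pramel6, known from early embryos and pluripotent cells. The rest are 32 pseudogenes, 3 long noncoding RNAs and 1 small nucleolar RNA. The nearest protein-coding genes before the run are Tnks1bp1, Aplnr (the apelin receptor) and Lrrc55 (an auxiliary protein of potassium channels), and those after it are Ptprj (a receptor tyrosine phosphatase), Gm46752 and Nup160 (a nuclear pore protein). Labels of the tissues were not checked against marker genes for the same reason.

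RefSeq promoter sequences, 250 bases before to 50 bases after the annotated start, were matched by gene ID for 186 of the 293 receptor genes. Those of the receptors at either end of the run that have an entry are shown to make visible how few CG dinucleotides such starts hold; capitals mark each CG, and both are given 5′ to 3′ on GRCm38.p6, so their positions cannot be set beside the window's. Olfr988 lies on the minus strand at chr2:85353875-85354174 and Olfr1274 on the plus strand at chr2:90400390-90400689.
Olfr988: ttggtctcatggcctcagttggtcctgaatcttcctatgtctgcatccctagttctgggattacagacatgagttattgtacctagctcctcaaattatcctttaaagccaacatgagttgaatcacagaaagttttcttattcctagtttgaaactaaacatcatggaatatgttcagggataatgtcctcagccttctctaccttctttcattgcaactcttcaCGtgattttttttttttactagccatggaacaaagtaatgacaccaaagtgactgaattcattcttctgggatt
Olfr1274: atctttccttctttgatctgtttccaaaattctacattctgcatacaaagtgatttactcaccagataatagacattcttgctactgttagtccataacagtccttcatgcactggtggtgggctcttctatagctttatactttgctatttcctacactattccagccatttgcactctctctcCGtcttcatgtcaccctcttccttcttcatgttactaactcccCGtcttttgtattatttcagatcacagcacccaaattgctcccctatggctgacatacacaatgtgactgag

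The Olfr988 sequence holds 1 CG and that of Olfr1274 holds 2. Over the 186 receptor starts the median was 1 CG in 300 bases (quartiles 0 and 2, highest 7), and none held 10 or more. Over all 27025 genes with a promoter entry, receptors included, the median was 7 (quartiles 3 and 21), and 43.9% held 10 or more. Over the 16548 protein-coding genes other than receptors the median was 15 (quartiles 4 and 25), and 60.4% held 10 or more. Receptor starts were also poor in G and C, with a median of 32.0% against 52.7% over all entries and 57.0% over those protein-coding genes. The hexamer TATAAA, searched on both strands like each motif here, was in 55.4% of receptor starts and 14.2% of all entries, and TAATTA, the core recognised by many homeodomain proteins, was in 24.7% and 5.31%. A palindromic motif of early B-cell factor proteins was in 0 of the 186 and in 0.914% of all entries. At least 1 CG was in 64.0% and 94.2%. These shares differ in base composition as well, and 69.9% of receptor entries begin with ATG at the annotated start, against 6.32% of all others, so many of these windows lie at the start of the coding sequence and may not be the promoter that a neuron uses.

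Polymerase read density in the window was below the genome average in every tissue. In brain 5802 reads lay in the window, 1.23 per kb (95% exact Poisson interval 1.20 to 1.27), against an autosomal mean of 4.23 per kb. Kidney held 10566 reads, 2.25 per kb (2.21 to 2.29), against a mean of 5.64. Liver held 13400, 2.85 per kb (2.80 to 2.90), against 6.10. In lung the window had 7877 reads, 1.68 per kb (1.64 to 1.71), against 4.44, and in spleen 14520, 3.09 per kb (3.04 to 3.14), against 5.39. The depth behind these values was 10292262 aligned reads in brain, 10846976 in lung, 13786536 in kidney, 14964934 in liver and 13283124 in spleen.

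As a ratio to the autosomal mean, the window stood at 0.292 in brain (0.284 to 0.299), 0.377 in lung (0.369 to 0.386), 0.399 in kidney (0.391 to 0.406), 0.467 in liver (0.460 to 0.475) and 0.573 in spleen (0.564 to 0.583). Brain thus had the lowest relative level and spleen the highest, and no neighbours in this order had overlapping intervals. The mean is raised by bins with very many reads. With medians of bins in place of means the ratios were 0.407 in brain, 0.509 in lung, 0.550 in kidney, 0.579 in liver and 0.616 in spleen, in the same order.

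**Figure D1:**
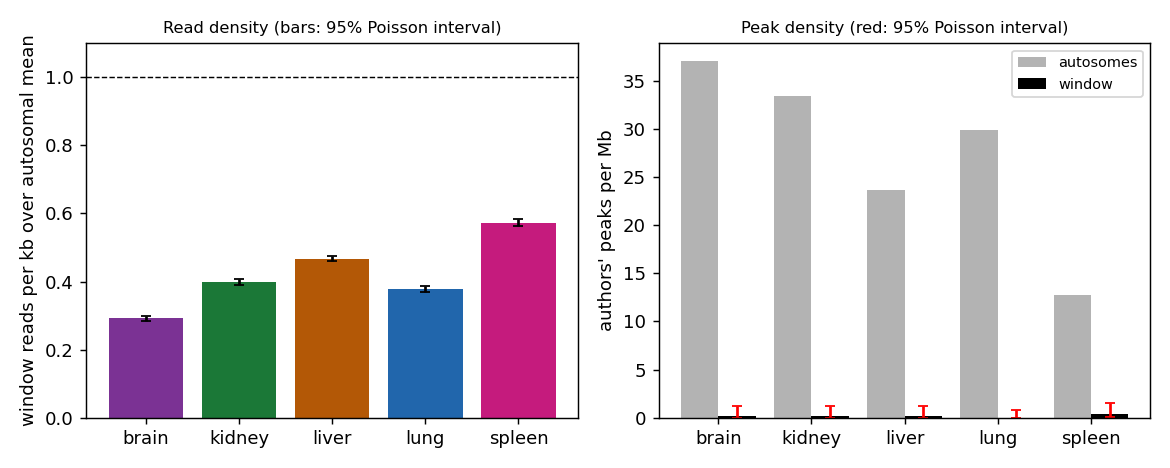
Left: reads per kb in the receptor window over the mean of autosomal 50 kb bins, 1 library per tissue, with 95% Poisson intervals; the dashed line is the autosomal mean. Right: the authors' peaks per Mb on the autosomes (grey) and in the window (black, red 95% Poisson interval). All 5 libraries sit below the dashed line, brain lowest at 0.292 and spleen highest at 0.573, and window peaks are at most 2 in a list.

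Almost every bin of the window was low, not only its sum. Below the autosomal median lay 93 of 94 bins in brain, kidney and liver and 92 in lung and spleen. Below the lower quartile of autosomal bins lay 88 bins in brain, 86 in lung, 85 in kidney, 81 in liver and 81 in spleen. The brain bins ran from 13 to 199 reads with a median of 61, whereas the median over the autosomes was 150 reads. Kidney bins ran from 39 to 239 (median 114.5, autosomes 208), liver bins from 51 to 272 (140, autosomes 242), lung bins from 20 to 227 (85.5, autosomes 168) and spleen bins from 69 to 300 (156.5, autosomes 254). No bin exceeded the autosomal mean in brain, kidney or liver, and 1 did in lung and 2 in spleen. The window was not the emptiest sequence, however: 7.0% of autosomal bins held fewer reads than the window's median bin in brain, 9.37% in liver, 9.90% in kidney, 10.7% in spleen and 10.9% in lung.

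Among the stretches of its own length compared here, the window was at or near the bottom. The autosomes were divided into 454 successive stretches of 4.7 Mb with at least 95% of bins used, which include stretches that overlap the window. An overlapping stretch can share most of its bins with the window. Whether the lowest stretch of a tissue overlaps the window was not determined. The mean density of a stretch was taken over its used bins only, whereas all 94 bins of the window were used. By that measure none lay below the window in brain, kidney, liver or lung, and 1 did in spleen. In brain the lowest stretch held 1.39 reads per kb, against 1.23 in the window and a median of 3.91. The lowest stretch lay inside the counting interval of the window in liver (2.85 reads per kb), lung (1.70) and spleen (3.07), so the order at the bottom is not resolved there. In kidney the lowest stretch held 2.30, just above the window's interval of 2.21 to 2.29. Counting error of the stretches themselves was not included, so the order is not taken as resolved in kidney either. The bins left out hold few reads, so a stretch could lie below the window if they were counted. Stretches with more such bins were not compared, and the order with all bins counted was not tested.

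**Figure D2:**
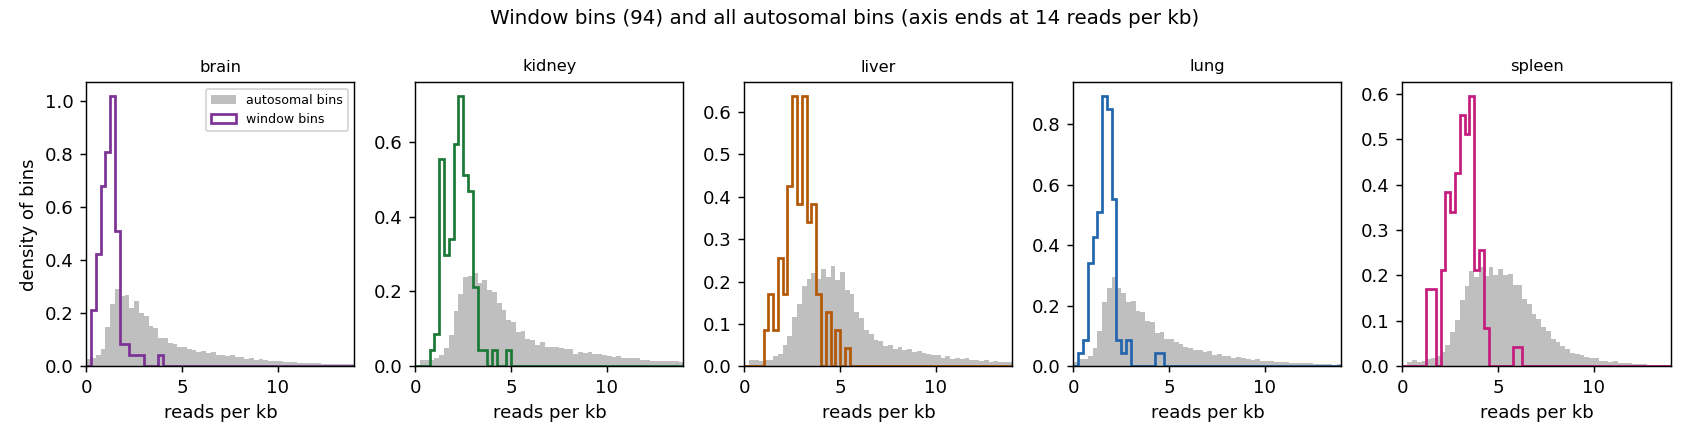
Distribution of reads per kb over 47203 autosomal 50 kb bins (grey) and the 94 bins of the receptor window (coloured outline), 1 panel per library; each histogram has area 1 over its bins and the axis ends at 14 reads per kb. The window bins form a narrow group left of the autosomal mode in each panel, with medians of 61 reads per bin in brain and 156.5 in spleen.

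Low density in the window was accompanied by a slightly larger share of sequence with no read. Of 4700 windows of 1 kb, 309 (6.57%) had no read in any library, against 4.01% of 2359831 autosomal ones. Receptor genes are near-identical copies in places, and reads that fit several copies may have been dropped or placed at will by the aligner, whose settings the sources used here do not give. Leaving out all 1 kb windows without a read, in the window and on the autosomes, gave ratios of 0.30 in brain, 0.388 in lung, 0.410 in kidney, 0.480 in liver and 0.589 in spleen. Other effects of sequence uniqueness on the ratio were not tested.

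The authors' peak lists were nearly empty in the window. Brain, kidney and liver had 1 peak each, spleen had 2 and lung had 0. Per Mb this is 0.213 in the first 3 (95% exact Poisson interval 0.00539 to 1.19), 0.426 in spleen (0.0515 to 1.54) and 0 in lung (up to 0.785). The autosomes held 37.0 peaks per Mb in brain, 29.9 in lung, 33.5 in kidney, 23.7 in liver and 12.8 in spleen. At these rates a stretch of this length would hold 174 peaks in brain, 141 in lung, 157 in kidney, 111 in liver and 60.1 in spleen, 643 over the lists against the 5 found. Counted by bins, 1 of 94 had a peak in brain, where 34.3% of autosomal bins had one. The same count was 0 in lung (33.1% of autosomal bins), 1 in kidney (31.3%), 1 in liver (26.1%) and 2 in spleen (28.9%). The sources used here give neither the peak caller nor its threshold.

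No peak in the window was shared by 2 tissues, and each held 11 to 21 reads of its own library within 250 bp. The brain peak at 85124811 had 11 brain reads within 250 bp, of which 8 differed in position or strand, with 5 in lung, 5 in kidney, 1 in liver and 1 in spleen. The median brain peak had 13 reads, and 30.2% of brain peaks had fewer than this one. The kidney peak at 85003871, only 3.87 kb from the window's edge, had 15 kidney reads and 2 to 5 in the other tissues, against a median of 16 over kidney peaks. Both of these lay in the first 150 kb of the window.

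The other peaks lay deep inside. The liver peak at 86917796 had 21 liver reads, 10 on the plus and 11 on the minus strand, and 0 to 3 in the other tissues. These 21 reads came from only 8 different combinations of position and strand. The median liver peak had 18 reads, and 59.4% of liver peaks had fewer than this one. One spleen peak, at 86713606, had 11 spleen reads from 9 such combinations, 5 in lung and 2 in each of the others; 17.3% of spleen peaks had fewer reads. At the other, 88906746, all 14 spleen reads lay on the plus strand, in 8 combinations, with 5 reads each in liver and lung, 8 in kidney and 2 in brain. The median spleen peak had 14 reads, and 46.9% of spleen peaks had fewer than that at 88906746. Over the window's mean density these peaks were 17.8-fold in brain (95% exact Poisson interval 8.88 to 31.8), 13.3-fold in kidney (7.45 to 22.0), 14.7-fold in liver (9.10 to 22.5) and 7.11-fold (3.55 to 12.7) and 9.05-fold (4.95 to 15.2) in spleen. The peaks were called on these same reads, so their folds are descriptions.

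Between the peaks the window held long stretches with no peak in any list. The longest ran from 86917796 to 88906746, 1.99 Mb, and a second ran from 85124811 to 86713606, 1.59 Mb. Another of 1.01 Mb began at 88906746 and ended past the window at 89914716. Among 546 peak-free stretches of over 0.5 Mb on the autosomes whose longest part without any read was under 50 kb, these ranked 36, 76 and 191 by length. Peak-free stretches of over 1 Mb numbered 193 by the same rule.

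The sequence to both sides of the window held more reads and peaks per length than the window did. In the 2 Mb before it, brain held 3.65 reads per kb and 60 peaks, kidney 5.80 and 79, liver 6.10 (6.095 before rounding) and 74, lung 5.95 and 171, and spleen 5.10 and 18. In brain and spleen both values were under the autosomal level: per Mb, brain had 30.0 peaks there against 37.0, and spleen had 9.0 against 12.8. Against the window's own density these levels were 2.96-fold in brain, 3.55-fold in lung, 2.58-fold in kidney, 2.14-fold in liver and 1.65-fold in spleen. The 2 Mb after it were higher still relative to the window except in lung, at 5.35-fold in brain, 3.48-fold in lung, 3.42-fold in kidney, 3.13-fold in liver and 2.03-fold in spleen, with 173 brain peaks, 115 lung peaks, 118 kidney peaks, 161 liver peaks and 43 spleen peaks.

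The low block did not end at the window's last base. In the 0.5 Mb that follow, density was 0.808 times the window's in brain, 0.746 in lung, 0.771 in kidney, 0.772 in liver and 0.828 in spleen, with 1 peak in spleen and none in the other lists. The first peak after the window lay 594 kb away in brain, 535 kb in kidney and lung, 599 kb in liver and 215 kb in spleen. On the other side the last peak before the window lay 85.2 kb away in brain, 20.9 kb in lung, 84.98 kb in kidney, 85.2 kb in liver and 22.7 kb in spleen. The rise at the first edge is therefore close to the chosen start, and that at the far side lies beyond the chosen end.

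**Figure D3:**
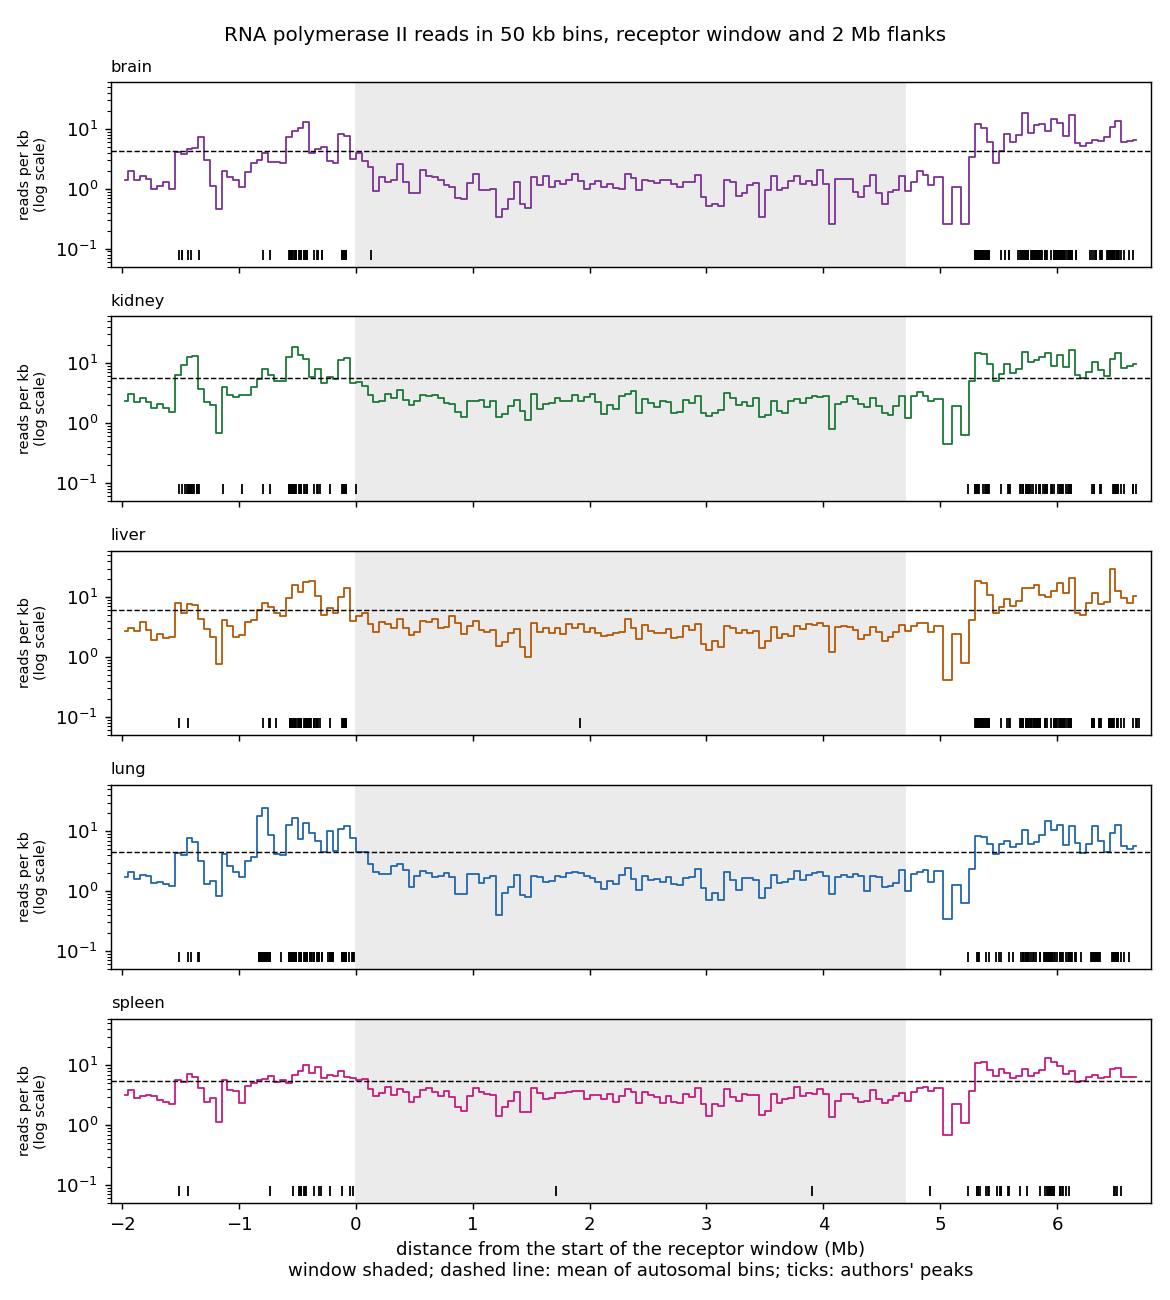
Reads per kb in 50 kb bins (log axis) along the receptor window (shaded) and 2 Mb to both sides, as distance from the window's start, 1 panel per library; bins under 50 reads over all libraries are left out. Dashed lines are autosomal means and ticks are the authors' peaks, which number 0 to 2 inside the window and 18 to 173 in each flank.

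Local exceptions in read density were few and mostly lay at the first edge. At 2 times the tissue's median bin or more were 3 of 94 bins in brain, 2 in lung, 1 in kidney, 0 in liver and 0 in spleen. Past the same number of reads lay 62.3% of autosomal bins in brain, 49.0% in lung, 43.4% in kidney, 35.8% in liver and 27.7% in spleen. The bin from 85000001 to 85050000 held 199 reads in brain, 3.26 times the median, with 227 in lung (2.65 times), 239 in kidney (2.09 times), 241 in liver (1.72 times) and 288 in spleen (1.84 times). The next, from 85050001 to 85100000, held 147 reads in brain (2.41 times), 222 in lung (2.60 times), 204 in kidney (1.78 times), 272 in liver (1.94 times) and 300 in spleen (1.92 times). All tissues were thus raised in these edge bins, brain and lung the most.

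The single high bin away from the edge ran from 85350001 to 85400000. It held 131 brain reads, 2.15 times the median, with 142 in lung (1.66 times), 176 in kidney (1.54 times), 214 in liver (1.53 times) and 204 in spleen (1.30 times), and no peak in any list. Without its first 3 bins the window held 1.17 reads per kb in brain, 1.60 in lung, 2.19 in kidney, 2.79 in liver and 3.02 in spleen. These are 0.951 (brain) to 0.979 (liver) times the values with them.

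On the scale of 1 kb, the threshold was reached in brain only. At least 10 reads and 8 times the tissue's mean were reached by 6 of 4700 windows in brain (9.64% of autosomal ones), and by 0 in kidney (4.12%), liver (2.00%), lung (4.19%) and spleen (0.402%). The threshold was 10 reads in brain but 13.4 in lung, 18.0 in kidney, 22.8 in liver and 24.7 in spleen, and the highest windows held 11 reads in lung, 15 in kidney, 21 in liver and 17 in spleen. Of the 6 brain windows, 4 lay between 85027001 and 85038000 and held 10 to 12 brain reads each. The others, tied at 10 brain reads, began at 85244001, where liver had 9 reads and each other tissue 3 to 5, and at 85371001, where liver had 10, spleen 5, kidney 1 and lung 0.

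The bins rose and fell together across tissues. Pearson's r between the bin counts of 2 libraries was 0.788 to 0.876 over the 10 pairs (Spearman's rho 0.739 to 0.830, 94 bins each). This is a description, since bins of all libraries share the same sequence and its unique part. The spread over bins was wider than counting error alone, with an SD of 27.2 reads in brain, where the mean of 61.7 would give 7.86, and of 41.4 in spleen, where it would give 12.4. Of the 10 lowest bins of each tissue, 6 were the same in all, but of the 10 highest only 3 were. The lowest of all by summed reads, from 89050001 to 89100000, held 13 reads in brain, 44 in lung, 39 in kidney, 61 in liver and 69 in spleen. The next, from 86200001 to 86250000, held 17 reads in brain and 20 in lung but 64 in kidney, 76 in liver and 71 in spleen. Liver's own lowest bin, from 86450001 to 86500000, held 51 liver reads.

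Against this common profile, the liver library had a larger share of reads over 3 neighbouring bins. Each bin's reads in a tissue were set against those of the other 4 libraries together, with a ratio of 1 meaning the same proportion as over the whole window. The ratios of the 94 bins ran from 0.761 to 1.25 in spleen, from 0.756 to 1.37 in kidney, from 0.493 to 1.42 in lung, from 0.488 to 1.60 in brain and from 0.730 to 2.10 in liver. A ratio of at least 1.5 with a 95% exact binomial (Clopper-Pearson) interval above 1 was found in 3 bins in liver (2.65% of autosomal bins) and 1 in brain (32.6%). It was found in 0 bins in kidney (5.43%), lung (7.42%) and spleen (0.290%). The ratio is scaled to the window's own proportions, so the autosomal shares move with each library's share of reads in the window, high in brain and low in spleen, and nothing is read from the counts against them. The bins are described for their position and size only. This measure was chosen after the values were seen.

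The 3 liver bins were neighbours. From 85800001 to 85850000 liver held 241 reads, with 146 in spleen, 102 in kidney, 86 in lung and 54 in brain, a ratio of 1.80 (1.52 to 2.12). From 85850001 to 85900000 it held 187 and the others 35 to 101, a ratio of 2.10 (1.73 to 2.54). From 85900001 to 85950000 it held 119 and the others 34 to 86, a ratio of 1.5 (1.19 to 1.88). In the first of these bins liver was at 1.72 times its median and the other tissues at 0.885 to 1.01 times theirs. In the second liver was at 1.34 times and the others at 0.526 to 0.672 times. In the third liver itself was under its median, at 0.85 times, and the others were lower still, at 0.526 to 0.559 times.

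The ratio was highest in the first 10 kb of these bins. In the 10 kb from 85800001 to 85810000 liver held 41 reads, against 7 in spleen, 5 in kidney, 4 in lung and 2 in brain, a ratio of 6.59 (3.70 to 12.2). Liver was only at 1.44 times its window mean in this bin, and the others were at 0.162 (brain) to 0.239 (lung) times theirs. The high ratio thus came largely from few reads in the other libraries. The next 10 kb held 83 liver reads against 14 to 33 in the others, a ratio of 2.70 (1.98 to 3.68), and the 10 kb from 85870001 held 75 against 14 to 43, a ratio of 2.13 (1.56 to 2.89). Over the 130 kb from 85800001 to 85930000 liver held 471 reads, 3.62 per kb, and the ratio was 1.96 (1.74 to 2.21). Liver was at 1.27 times its window mean there, and the others were at 0.604 (brain), 0.664 (kidney), 0.643 (lung) and 0.657 (spleen) times theirs. Liver reads lay on both strands, 50.3% on the plus strand. With 1 read per position and strand the ratio was 2.04, and against each other library alone it was 1.91 to 2.10. There was no peak in any list in this stretch, its limits were drawn after the counts were seen, and a single liver library cannot tell a tissue from an animal.

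The brain bin was the first of the window, with a ratio of 1.60 (1.37 to 1.86). Within it the 20 kb from 85020001 to 85040000 held 126 brain reads, 6.30 per kb, with 91 in lung, 96 in kidney, 95 in liver and 105 in spleen, a ratio of 2.60 (2.11 to 3.19). All tissues were above their window means there, from 1.67 times in liver to 5.10 times in brain. No list had a peak in these 20 kb.

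Bins of 10 kb that leaned to a tissue lay both inside and outside these stretches. A ratio of at least 2 with an interval above 1.5 was met by 10 of the 470 bins, taking each tissue in turn. These were 3 in brain (14.2% of autosomal 10 kb bins), 0 in lung (2.16%), 2 in kidney (2.04%), 3 in liver (1.33%) and 2 in spleen (0.0657%). As shares of the 470 bins these are 0.638% in brain and liver and 0.426% in kidney and spleen. The 3 liver bins of 10 kb are those given above. The brain bins from 85020001 and from 85030001 make up the 20 kb stretch given above. The same scaling moves the autosomal shares, high in brain and low in spleen, so nothing is read from the counts against them. Spleen held 40 reads from 88130001 to 88140000 against 4 in brain, 17 in kidney, 9 in liver and 7 in lung, a ratio of 2.80 (1.75 to 4.51), and 22 from 89550001 to 89560000 against 1 to 8, a ratio of 3.17 (1.62 to 6.27). Kidney held 56 from 89240001 to 89250000 against 13 to 38, a ratio of 2.14 (1.52 to 2.99), and 38 from 85390001 to 85400000 against 10 to 27, a ratio of 2.30 (1.5 to 3.49). The brain bin from 88540001 to 88550000 held 13 reads, as many as liver's 13, and 5 to 7 in the others.

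**Figure D4:**
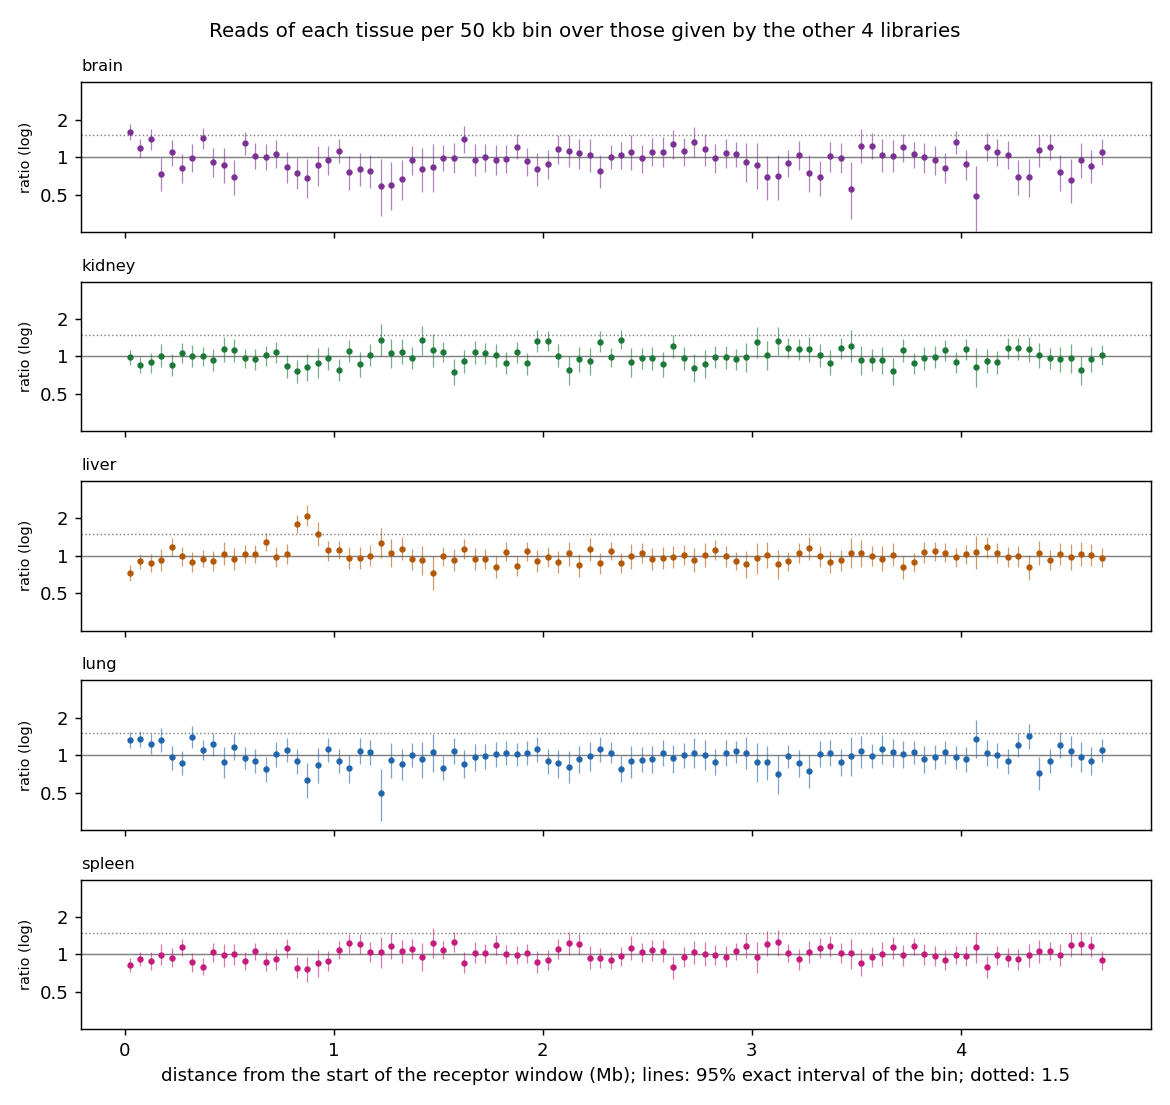
Ratio of each tissue's reads per 50 kb bin to those given by the other 4 libraries (log axis), where 1 is the proportion over the whole window, as distance from the window's start; lines are 95% exact intervals and the dotted line marks 1.5. Liver rises to 2.10 in a group of 3 bins near 0.9 Mb, brain reaches 1.60 in the first bin, and spleen stays between 0.761 and 1.25.

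Reads in the window showed no lean to 1 strand and few repeats. The plus strand held 49.4% of window reads in brain (95% exact binomial interval 48.1% to 50.7%), 49.2% in lung, 49.8% in kidney, 50.1% in liver and 50.1% in spleen, and each interval included 50%. Reads repeating the position and strand of another were 6.08% in brain (7.12% in the whole library), 6.03% in lung (7.16%), 3.30% in kidney (4.51%), 8.43% in liver (8.87%) and 6.01% in spleen (8.52%).

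Set against all aligned reads, the window took up the smallest share in brain, with 564 of every 1000000 reads (549 to 578). Lung followed with 726 (710 to 742), kidney with 766 (752 to 781), liver with 895 (880 to 911) and spleen with 1093 (1075 to 1111). Spleen was 1.94-fold over brain (1.88 to 2.00, exact binomial interval), and the closest neighbours, kidney and lung, differed 1.06-fold (1.02 to 1.09). The share of a library's reads within 250 bp of its own peaks ran in the opposite order: 14.4% in brain, 12.4% in lung, 11.9% in kidney, 11.4% in liver and 4.57% in spleen. Both are shares of the same total. The peak lists also differ in length, from 31594 positions in spleen to 91712 in brain, so the amount of sequence counted as peaks differs between tissues. The 5 libraries are too few for a correlation, and whether the orders are related was not tested.

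Used as a background, the window gave the tissues different contrasts at active regions. Regions with a peak in all 5 tissues, made by extending each peak by 250 bp to both sides and merging, numbered 8412 on the autosomes. Their median density was 43.7 times that of the window in brain (quartiles 27.0 and 68.5), 36.8 times in lung (22.6 and 58.4), 24.7 times in kidney (17.2 and 36.4), 22.7 times in liver (13.1 and 40.8) and 10.7 times in spleen (7.73 and 16.0). Not 1 of the 8412 regions fell below the window in any tissue. The regions were chosen by peaks called on the same reads, so this is a description. An even density at the level of the window over all autosomal bins used would account for 29.2% of their reads in brain, 37.7% in lung, 39.9% in kidney, 46.7% in liver and 57.3% in spleen.

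Library factors taken from the window differed from those of other reads. With the geometric mean of the libraries set to 1, the factor from window reads was 0.587 in brain (0.572 to 0.603), 0.798 in lung (0.780 to 0.815), 1.07 in kidney (1.05 to 1.09), 1.36 in liver (1.33 to 1.38) and 1.47 in spleen (1.45 to 1.49). From all aligned reads the factors were 0.823 for brain, 0.867 for lung, 1.1 for kidney, 1.20 for liver and 1.06 for spleen. From 6163 of the common regions, those with at least 20 reads in every tissue, they were 1.02 for brain, 1.15 for lung, 1.04 for kidney, 1.22 for liver and 0.670 for spleen. On the log2 scale the difference of the window factor from the common-region factor was -0.80 in brain, -0.52 in lung, 0.04 in kidney, 0.15 in liver and 1.13 in spleen. A level in spleen set beside one in brain therefore depends on which reads are held equal between the libraries, and these data do not say which is right.

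**Figure D5:**
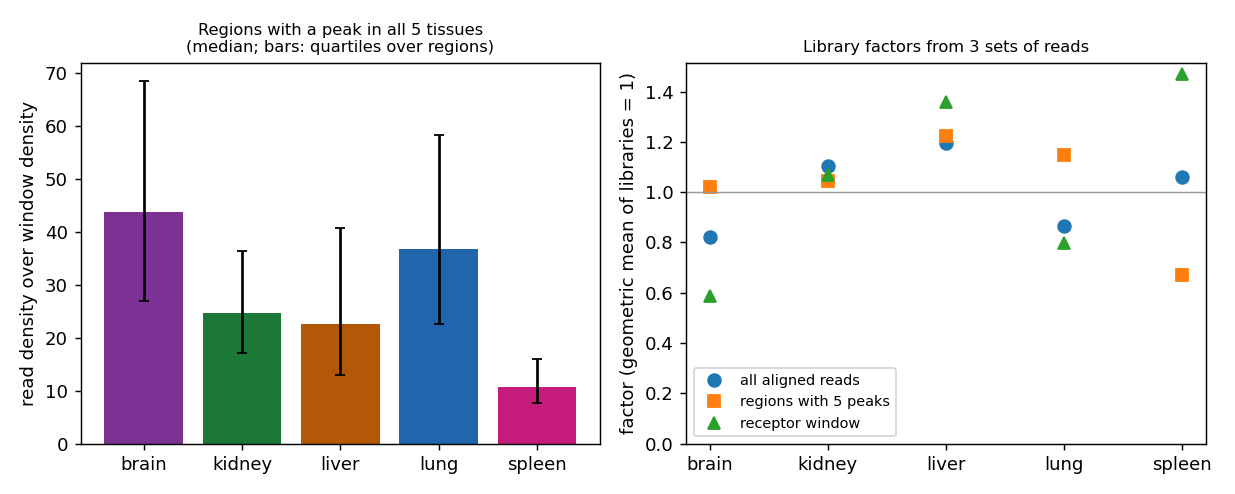
Left: read density at the 8412 common regions, each with peaks of every tissue, over that of the receptor window, median with quartiles over regions, 43.7 in brain and 10.7 in spleen. Right: library factors from all aligned reads (circles), from common regions (squares) and from the window (triangles), with the geometric mean of the 5 libraries at 1; spleen has the highest factor by window reads and the lowest by common regions.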

How the data were processed

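Reads: 5 libraries, 1 per tissue. The deposited read files list 1 aligned read per line with position and strand; they were aligned with Bowtie, per the submitters' processing notes, while the sources used here give neither its version and settings nor the genome build. The deposited peak files list 1 position per peak on a 5 bp grid, without score or p-value. These other values, positions, were the only unit in the files, and counts were made from them here.

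Left out were 4 to 15 lines per library whose length was not 34 to 36 bases. Reads were counted at the 5′ end in bins of 50 kb, 10 kb and 1 kb on the 19 autosomes. The bins follow from fixed limits, but the window as a subject and all lists were chosen with earlier results of these data known. Named items followed a rule: peak regions shared by tissues, the highest bins at 2 times the median, the 5 highest 1 kb windows per tissue with ties, the extreme bins, and the outermost receptors of the run with a promoter entry. The 10 kb bins, the ratio between tissues and the stretches were added after the data were seen. The call of 50 kb bins that lean to a tissue was tried on simulated counts for liver only. These had fixed tissue proportions and Poisson counting error, so other tissues and a wider spread between libraries were not covered. Intervals are 95% exact Poisson or Clopper-Pearson intervals and treat reads as independent molecules, which they are not without molecular identifiers. Marker lists that needed an annotation of the files' build were not used here. Alternatives covered repeated reads, read position, window limits, reference, bin size, thresholds and depth. Counts and intervals were made in Python 3.11.15 with SciPy 1.17.1, NumPy 2.4.6 and pandas 2.3.3, and figures with Matplotlib 3.10.9.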

Additional observations from a re-analysis of the deposited data

How the results depend on the processing

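Values are in the order brain, kidney, liver, lung, spleen. The ratio of window to autosomal density, 0.292, 0.399, 0.467, 0.377 and 0.573, stayed below 1 under each alternative tried. It was 0.407, 0.550, 0.579, 0.509 and 0.616 with medians of bins, 0.306, 0.418, 0.490, 0.395 and 0.60 with no read minimum, 0.261, 0.356, 0.439, 0.342 and 0.521 against the rest of chromosome 2, and 0.280, 0.392, 0.459, 0.359 and 0.561 with the window shortened by 250 kb at both ends. With 1 read per position and strand spleen gave 0.589. Chosen after the data were seen, leaving out 1 kb windows without a read gave 0.30, 0.410, 0.480, 0.388 and 0.589, and leaving out the first 3 bins gave 0.277, 0.389, 0.458, 0.361 and 0.560. Thinning to the smallest library and moving reads 100 bp downstream kept the ratio inside its interval in all tissues.

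The shortened window held 0 peaks in brain and kidney. High bins, 3, 1, 0, 2 and 0, numbered 6, 3, 6, 5 and 2 at 1.5 times the median, 1, 0, 0, 0 and 0 at 3 times, 1, 0, 0, 1 and 0 with 100 kb bins, 6, 3, 3, 7 and 1 with 25 kb bins, and 1 in liver with 1 read per position and strand. Window factors moved beyond counting error in 2 of 20 cases, to 1.1 in kidney and 1.32 in liver, with 1 read per position and strand. The liver stretch stayed at 1.91 to 2.10 in the 6 alternatives, all chosen after the data were seen. The cause of these shifts was not tested. Depth limits the finest scale: at 1.23 to 3.09 reads per kb, a 1 kb window cannot show a change of a few reads. No paired analysis was possible because each tissue has 1 library and the labels number no replicates.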
